A study of Mus musculus with 4 samples.

Results

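The genes described here are 10 genes induced by low oxygen that do not encode glycolytic enzymes: Bnip3, Ankrd37, Egln1, Egln3, Car9, Adm, Vegfa, Ndrg1, P4ha1 and P4ha2. They were taken from the arrays by gene name among the spots that are not controls, which gave 16 probes on 25 spots per array. All 10 genes passed the filter on dim probes and are 10 of 15538 genes tested, although 1 of the 16 probes did not pass.

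Small intestinal crypts, glands of the epithelium with stem cells at their base, were isolated from 2 mice with EDTA and a strainer, and split. RNA was taken from one part directly (the crypt group, freshly isolated), and the other part was embedded in Matrigel and cultured with EGF, R-spondin and Noggin for 1 week before RNA isolation (the organoid group). Crypt and organoid RNA of a mouse were hybridised together on a two-colour Agilent whole-genome mouse array, a second array carried the same RNAs with the dyes exchanged, and the 4 arrays, on 1 slide, give n = 2 mice. The strain, age, sex and any genetic modification of the mice, and the oxygen tension of the cultures, are not given in the sources used here. Each value is a log2 ratio of organoid over crypt, so that 1 is a 2-fold higher and -1 a 2-fold lower signal in organoids. A gene is said to have passed the test, or to have risen or fallen, where the 2 mouse means differed from 0 with an adjusted p under 0.05 (limma, Benjamini-Hochberg adjustment over all genes). With 2 mice and 1 residual degree of freedom, this test leans on the spread borrowed from all other genes.

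Cells sense oxygen through prolyl hydroxylases, the products of the Egln genes, which use oxygen to mark the alpha subunits of hypoxia-inducible factor (HIF) for destruction through the VHL protein. When oxygen is scarce the alpha subunits escape, pair with ARNT and bind short DNA motifs near their target genes. The 10 genes are well-known HIF targets that act outside glycolysis: in oxygen sensing itself, in the removal of mitochondria, in collagen maturation, in signals to blood vessels and in the handling of acid. In the intestine HIF is best known for control of iron uptake and of the epithelial barrier.

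The RefSeq promoter table (GRCm38.p6) holds 9 of the 10 genes, the other being Ndrg1. The 250 bases before the annotated start were searched for the core letters of the HIF-binding motif, ACGTG or GCGTG, on both strands (CACGT and CACGC on the strand shown). The palindrome CACGTG counts on both strands, and neighbouring matches may overlap. Each of the 9 genes had at least 1 match in 1 of its windows, against 58.6% of 10197 tested genes with a window and 41.5% of all 27025 genes in the table. At least 3 matches were found for 4 of the 9 (Bnip3, Ankrd37, P4ha1 and P4ha2), against 13.4% of the tested genes. The 5 promoters printed here belong to the 5 genes of the table with the highest organoid over crypt ratios below. They are written 5′ to 3′ on the strand of the gene, with the matched letters in capitals, and lie at chr7:138909507-138909756 (minus strand, Bnip3), chr8:45999851-46000100 (minus, Ankrd37), chr12:54203875-54204124 (minus, Egln3), chr11:54100674-54100923 (plus, P4ha2) and chr10:59323046-59323295 (plus, P4ha1).
Bnip3: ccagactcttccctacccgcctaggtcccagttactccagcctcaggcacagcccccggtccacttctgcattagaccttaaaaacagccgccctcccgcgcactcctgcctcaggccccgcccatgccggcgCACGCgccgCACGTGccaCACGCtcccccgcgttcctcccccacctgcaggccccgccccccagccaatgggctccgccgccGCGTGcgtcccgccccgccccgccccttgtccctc
Ankrd37: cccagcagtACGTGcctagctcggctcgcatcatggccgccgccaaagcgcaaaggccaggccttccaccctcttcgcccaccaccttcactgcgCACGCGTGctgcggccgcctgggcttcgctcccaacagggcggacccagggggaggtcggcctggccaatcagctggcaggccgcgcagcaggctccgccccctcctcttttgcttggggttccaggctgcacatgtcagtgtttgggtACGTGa
Egln3: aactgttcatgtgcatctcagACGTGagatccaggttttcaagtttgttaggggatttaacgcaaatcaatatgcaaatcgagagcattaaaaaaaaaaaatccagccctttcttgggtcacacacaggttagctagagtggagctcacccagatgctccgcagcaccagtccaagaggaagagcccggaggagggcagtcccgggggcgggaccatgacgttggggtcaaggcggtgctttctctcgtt
P4ha2: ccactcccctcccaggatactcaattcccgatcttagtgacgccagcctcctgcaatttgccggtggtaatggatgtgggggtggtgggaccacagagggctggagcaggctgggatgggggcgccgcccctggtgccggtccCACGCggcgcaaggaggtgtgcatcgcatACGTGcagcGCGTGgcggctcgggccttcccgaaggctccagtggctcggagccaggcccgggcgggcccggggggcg
P4ha1: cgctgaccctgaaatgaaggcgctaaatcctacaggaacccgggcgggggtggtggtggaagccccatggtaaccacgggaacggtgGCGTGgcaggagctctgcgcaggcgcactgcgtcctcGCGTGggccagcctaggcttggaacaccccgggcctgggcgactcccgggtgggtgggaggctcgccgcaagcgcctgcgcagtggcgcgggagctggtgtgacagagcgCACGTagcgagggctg
Bnip3 held 5 matches, of which 4 lie between 117 and 99 bases before the start, where a CACGTG palindrome stands between flanking CACGC letters. Ankrd37 held 4, the nearest 6 bases before the start. P4ha1 and P4ha2 held 3 each, and Egln3 held 1, at 229 bases before the start. Adm and Egln1 had 2 matches and Car9 had 1, 18 bases before its start. Of the Vegfa windows in the table, 1 had 2 matches (chr17:46025164-46025413, minus strand) and the other had 0 (chr17:46032378-46032627, minus strand). The window with matches lies downstream of the other along the gene. Vegfa therefore counts among the 9 genes with a match only through its downstream window. A match is a run of letters only, and binding was not measured.

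As a group, 7 of the 10 genes rose in organoids and 0 fell. The 7 were Bnip3, Ankrd37, Egln3, P4ha2, Ndrg1, P4ha1 and Vegfa. Adm, Car9 and Egln1 did not pass the test. Among all 15538 genes, 10.9% passed it in either direction and 5.43% (844 genes) rose. Before adjustment, all 10 genes had a limma p under 0.05 (highest 0.0314), as did 4294 of all 15538 genes. The median log2 ratio of the 10 genes was 2.25, against 0.02 for all genes tested. All 10 had a ratio above 0 in both mice, as did 37.1% of all genes, and 6 of the 10 were at least 2-fold higher in both mice, as were 1.62% of all genes (251). Leaving out Adm, Car9, Egln1 and Vegfa, the other 6 genes had mean ratios from 1.78 to 3.43, that is 3.43-fold to 10.8-fold higher signal in organoids. For P4ha2 and P4ha1 these folds may be too low. Their crypt intensities in mouse 2 were 7.48 and 7.71 (log2), below the 7.97 of the dim stromal probe of Col1a2. At such probes the offset added in background correction draws ratios towards 0. With the scanner software's own ratio P4ha2 read 4.63 and P4ha1 2.82. Without background subtraction they read 2.92 and 1.77. The part of the offset in these differences was not tested. When each tested probe was fitted by itself, 8 of the 15 tested probes of the 10 genes passed as higher, against 4.48% of all 21923 tested probes. The 8 include a second P4ha1 probe that entered the test only through its organoid channels. The genes were chosen with earlier results of these data known, so the counts are a description. Arrays of bulk RNA do not tell more RNA per cell from more cells of a type that makes it.

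**Figure D1:**
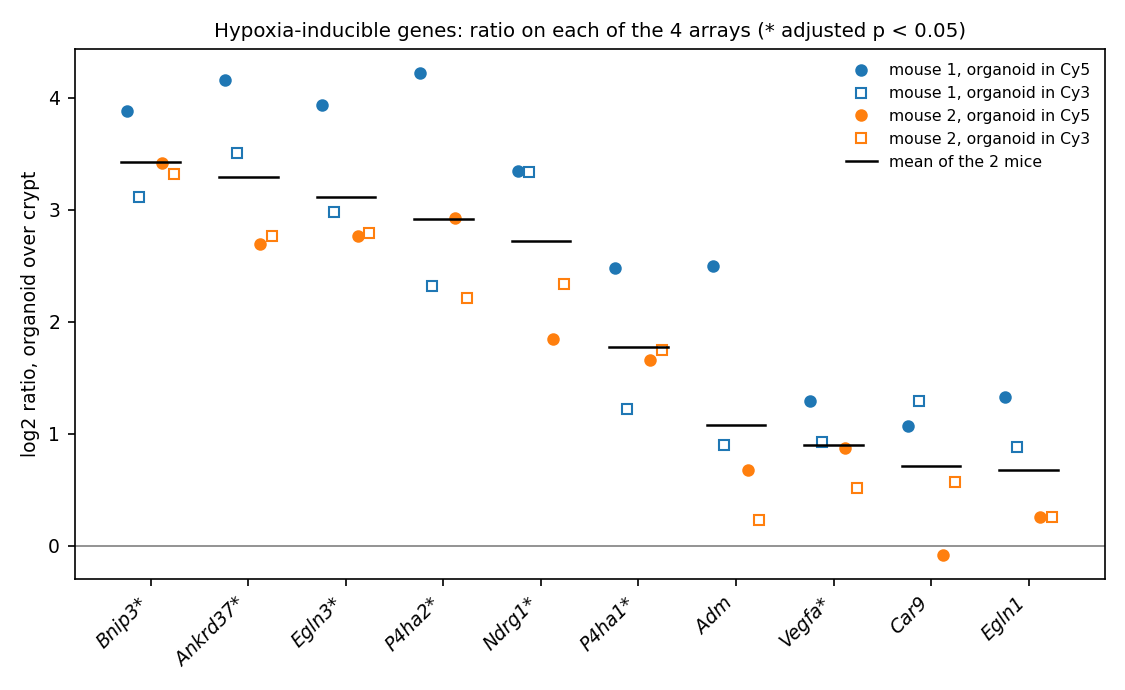
Log2 ratio of organoid over crypt (vertical axis) for each of the 10 genes (horizontal axis, ordered by mean) on each of the 4 arrays, with the mean of the 2 mice as a bar and an asterisk where the adjusted p is under 0.05. Bnip3, Ankrd37, Egln3, P4ha2 and Ndrg1 lie at 1.85 or above on every array, and a single value of the 40 plotted, for Car9 in mouse 2, lies below 0.

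Of the oxygen sensors, Egln3 rose and Egln1 did not pass the test. Egln3 encodes a prolyl hydroxylase that is itself a HIF target and so part of a feedback loop. Its probe (mm9 chr12:55280953-55281012, minus strand) gave log2 ratios of 3.94 and 2.98 on the arrays of mouse 1 and 2.77 and 2.79 on those of mouse 2. The array of mouse 1 with organoid RNA in Cy5 was the highest, and even the lowest array was above 2.7. The mean was 3.12 ± 0.48 (SD, n = 2 mice), an 8.69-fold higher signal (limma adjusted p = 0.00265), which ranked 9 of 15538 genes. Egln1 encodes the prolyl hydroxylase that does most of the oxygen sensing in many tissues. Its brighter probe (chr8:127433241-127433300, minus strand) read 1.33 and 0.88 in mouse 1 and 0.26 on both arrays of mouse 2, with a mean of 0.68 ± 0.59 (adjusted p = 0.126). A further Egln1 probe read 0.58 in mouse 1 and 0.16 in mouse 2. Both probes read above 0 in both mice, and neither passed the test.

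The intensities behind these ratios were normalised between arrays in a way that leaves each ratio as it was, so they add the level in each tissue and mouse and are no second test. Egln3 read 9.28 in crypts and 12.74 in organoids of mouse 1, and 8.18 and 10.96 in mouse 2 (log2 intensity), so the lower organoid value exceeded the higher crypt value by over 1 log2 unit. Egln1 read 9.82 and 10.92 in mouse 1 and 9.83 and 10.10 in mouse 2. Its crypt values were nearly equal between the mice, and the organoid values lay apart. Intensities of different probes depend on the probe and were not set against each other.

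Bnip3, which encodes a protein of the outer mitochondrial membrane that marks mitochondria for removal by autophagy, had the highest mean ratio of the 10 genes. Its probe (chr7:146083077-146083136, minus strand) read 3.88 and 3.12 in mouse 1 and 3.42 and 3.32 in mouse 2. The mice differed less than the dye-exchanged arrays of mouse 1. The mean was 3.43 ± 0.09, a 10.8-fold higher signal (limma adjusted p = 0.00124), which ranked 5 of all genes tested. In intensity, Bnip3 rose from 9.66 to 13.16 in mouse 1 and from 8.72 to 12.09 in mouse 2. Both tissues were therefore brighter in mouse 1 by about 1 log2 unit, and the ratio was almost the same.

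Ankrd37 encodes a small ankyrin-repeat protein known mainly as a HIF target. The probe at chr8:47082404-47082463 (minus strand) read 4.16 and 3.51 in mouse 1 and 2.70 and 2.77 in mouse 2, a mean of 3.29 ± 0.78 or 9.75-fold (adjusted p = 0.00456). The arrays of the mice did not overlap: crypt intensity was similar (9.56 and 9.35), and organoid intensity was 13.40 in mouse 1 and 12.08 in mouse 2. Ndrg1, a stress-responsive gene linked to epithelial differentiation, had the same arrangement at chr15:66761057-66761116 (minus strand). Its intensity went from 12.74 to 16.08 in mouse 1 and from 12.90 to 15.00 in mouse 2. At most 1 spot other than controls was marked as saturated on any array. Ndrg1 read 3.35 and 3.34 in mouse 1 and 1.85 and 2.34 in mouse 2. Its mean of 2.72 ± 0.88, or 6.6-fold, passed the test (adjusted p = 0.00895), and mouse 2 by itself showed a 4.28-fold difference. Without the filter on dim probes, which raises the number of genes tested to 28562, Ndrg1 no longer passed (adjusted p = 0.0718).

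P4ha1 and P4ha2 encode alternative catalytic alpha subunits of the collagen prolyl hydroxylase, which lets collagen chains form stable triple helices, and both rose. P4ha2 (chr11:53945032-53945091, plus strand) read 4.22 and 2.32 in mouse 1 and 2.93 and 2.21 in mouse 2, a mean of 2.92 ± 0.49 or 7.56-fold (limma adjusted p = 0.00319). In both mice the array with organoid RNA in Cy5 was the higher, by 1.90 in mouse 1 and 0.73 in mouse 2, and a dye effect of the same size on both arrays cancels in the mean of a mouse. Over the alternatives tried, the P4ha2 ratio ran from 2.26 to 4.63 and passed in 9 of 9. The second P4ha2 probe (chr11:53940882-53940941) stayed near background in all 8 channels and was not tested. P4ha1 (chr10:58834272-58834331, plus strand) read 2.48 and 1.22 in mouse 1 and 1.66 and 1.75 in mouse 2, with a mean of 1.78 ± 0.10 or 3.43-fold (adjusted p = 0.00355). Its second tested probe read 1.32 ± 0.05 and passed when fitted by itself (limma adjusted p = 0.00688). That probe was well above background in 1 of 4 crypt channels. It entered the test only through the organoid channels, where it was high, and so adds no independent evidence.

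The intensities of both subunits were higher in organoids than in crypts of either mouse. P4ha2 went from 8.50 to 11.77 in mouse 1 and from 7.48 to 10.05 in mouse 2. P4ha1 went from 8.50 to 10.35 in mouse 1 and from 7.71 to 9.41 in mouse 2. The beta subunit of the same enzyme, P4hb, fell by 0.73 ± 0.29 (adjusted p = 0.0471), a call that was lost in 7 of the 9 alternatives. Of the 6 tested genes on the list of other collagen-modifying enzymes, P4hb was the only 1 to pass the test, and the lysyl hydroxylase gene Plod2 read 0.99 in mouse 1 and 0.43 in mouse 2 (adjusted p = 0.0709).

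**Figure D2:**
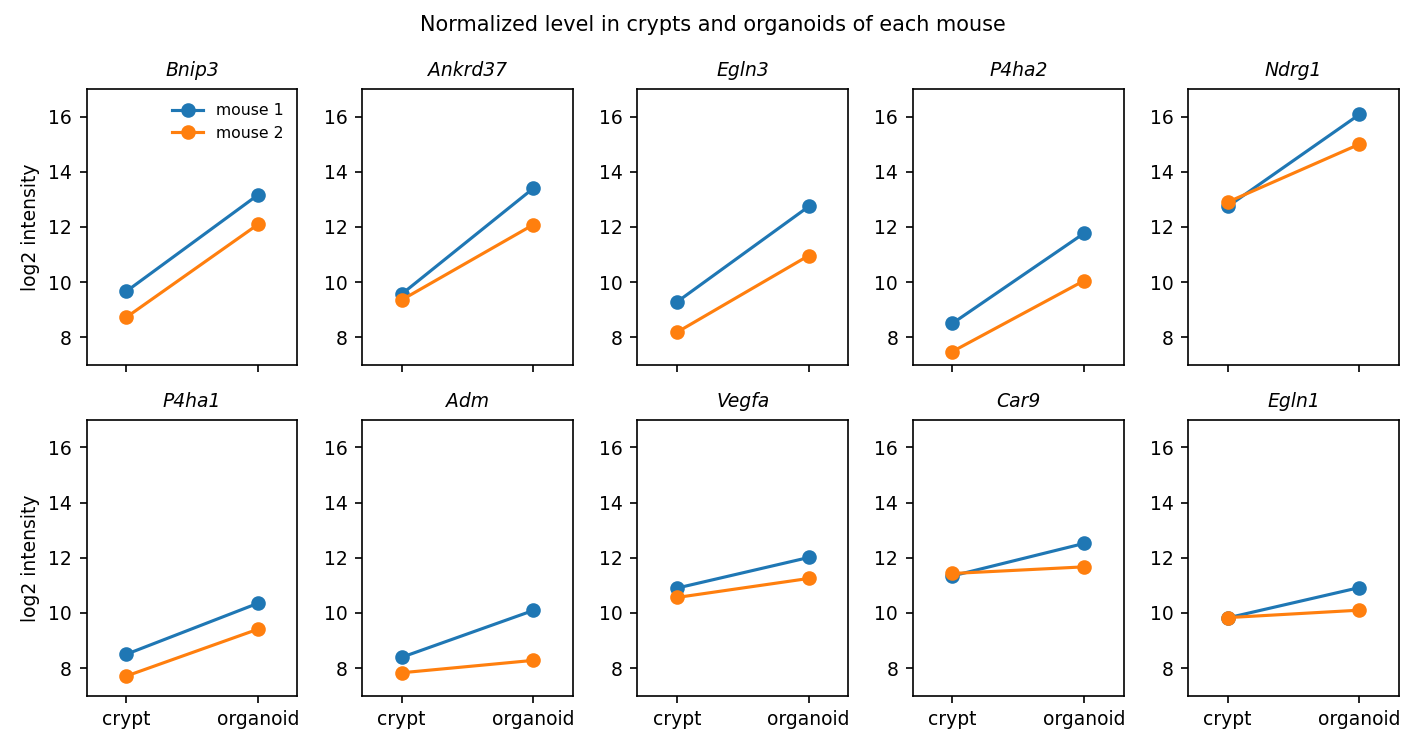
Log2 intensity after normalisation between arrays (vertical axis) in crypt and organoid RNA, 1 panel per gene, with 1 line per mouse joining the mean of its 2 arrays. All lines rise from crypt to organoid, and the organoid end is higher in mouse 1 for all 10 genes, by 0.76 (Vegfa) to 1.81 (Adm).

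Of the secreted factors, Vegfa passed the test and Adm did not. Vegfa, which encodes the main growth factor for blood vessels, read 1.29 and 0.93 in mouse 1 and 0.87 and 0.52 in mouse 2 at its brightest probe (chr17:46154387-46154446, minus strand). All 4 arrays were above 0, and the mean of 0.90 ± 0.29, or 1.87-fold, passed the test (limma adjusted p = 0.0282). The call was lost in 6 of 9 alternatives, among them the mean over the gene's 4 probes (0.54, adjusted p = 0.134) and the authors' deposited matrix (0.95, adjusted p = 0.057). Intensity went from 10.90 to 12.01 in mouse 1 and from 10.56 to 11.25 in mouse 2.

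The 4 Vegfa probes did not give the same answer in mouse 2. The probe spotted 10 times per array (chr17:46155512-46155571) lies 1125 bases upstream of the brightest one along the genome. In mouse 1 its 10 spots ran from 0.84 to 1.03 on one array and from 0.97 to 1.05 on the other. In mouse 2 they ran from -0.15 to -0.03 and from -0.12 to -0.05, so that all 10 spots were above 0 on each array of mouse 1 and 0 of 10 on each array of mouse 2. By this probe the means of the mice were 0.99 and -0.08. The spots of an array repeat 1 labelled pair of RNAs, so their spread is technical and does not test the difference between the mice. The next probes upstream (chr17:46162376-46162435 and chr17:46169039-46169098) read 0.90 and 0.33 in mouse 1 and 0.19 each in mouse 2. Fitted by themselves, these 3 probes did not pass (adjusted p from 0.168 to 0.357), and the brightest did (0.0301). Which exon or transcript form each probe reads was not analysed here.

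**Figure D3:**
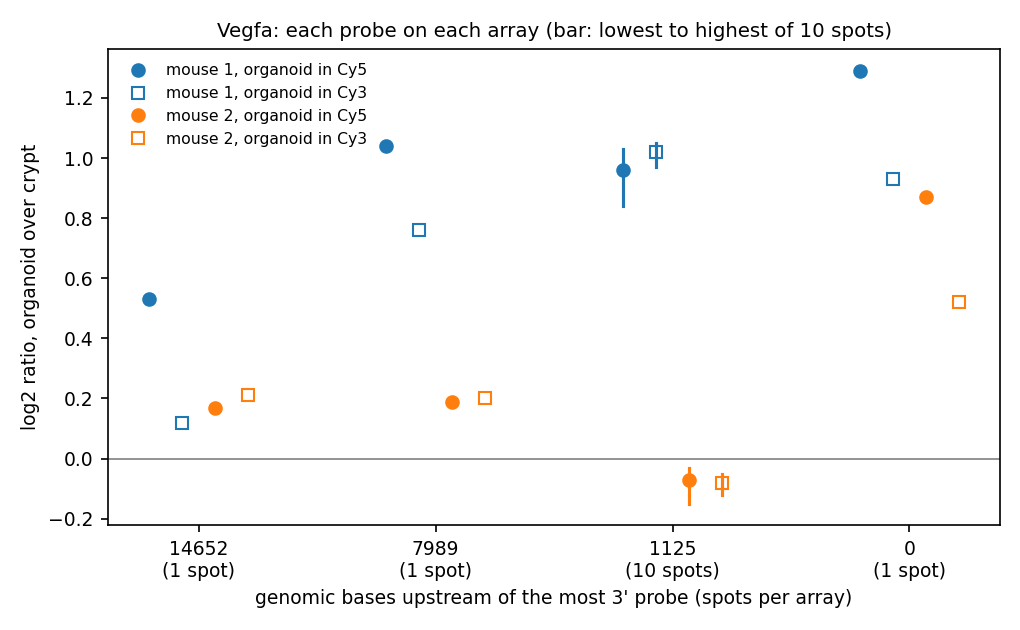
Log2 ratio of organoid over crypt (vertical axis) at the 4 Vegfa probes, ordered by their distance in genomic bases upstream of the most 3' probe (horizontal axis, spots per array in brackets), with 1 marker per array and, for the probe with 10 spots, a bar from the lowest to the highest spot. In mouse 1 the mean of both arrays is 1.11 at the most 3' probe and 0.33 at the farthest, and in mouse 2 it is 0.69 at the most 3' probe and between -0.08 and 0.19 at the other 3.

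Adm encodes adrenomedullin, a peptide that widens vessels and acts on endothelial and epithelial barriers. Its probe (chr7:117773088-117773147, plus strand) read 2.50 and 0.90 in mouse 1 and 0.68 and 0.23 in mouse 2. The arrays with organoid RNA in Cy5 were the higher in both mice, by 1.60 and 0.44. The mean was 1.08 ± 0.88, or 2.11-fold, and did not pass the test (limma adjusted p = 0.0905). It passed in 1 of 9 alternatives, the arrays with organoid RNA in Cy5 taken alone (1.59, adjusted p = 0.0354, against a range up to 0.257 over the alternatives). Intensity went from 8.39 to 10.09 in mouse 1 and from 7.83 to 8.28 in mouse 2. The crypt level of mouse 2 was below that of the dim Col1a2 probe, so the 2.11-fold may be too low. With the scanner software's own ratio Adm read 1.81 and did not pass (limma adjusted p = 0.13).

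Car9 encodes a carbonic anhydrase of the cell surface that helps cells export acid. Its probe (chr4:43526023-43526082, plus strand) read 1.07 and 1.29 in mouse 1 and -0.08 and 0.57 in mouse 2. Of the probes that represent the 10 genes, it was the only one with an array below 0. The mean of 0.71 ± 0.66, or 1.64-fold, did not pass the test (limma adjusted p = 0.137), nor did it in any of the 9 alternatives. Crypt intensity was nearly the same in the mice, 11.34 and 11.43, and organoid intensity was 12.52 and 11.67. Of 11 tested genes on the list of other carbonic anhydrases, 1 rose and 2 fell. Car8, a family member without the enzyme activity, rose by 1.39 ± 0.34 (adjusted p = 0.0109). The brush-border enzyme gene Car4 fell by 2.87 ± 0.22 (adjusted p = 0.00165) and the cytosolic enzyme gene Car2 fell by 1.07 ± 0.45 (adjusted p = 0.0291), and the median of the 11 was 0.00. Car4 was well above background in 3 of 4 organoid channels and entered the test only through its crypt channels.

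In all 10 genes the ratio was larger in mouse 1 than in mouse 2. The difference ran from 0.13 (Bnip3) and 0.14 (P4ha1) to 1.25 (Adm and Ndrg1), with a median of 0.77 on the log2 scale. Among all genes tested 49.9% had the larger ratio in mouse 1, and among the 844 that rose 43.4% did, as did 50% of the 58 that rose more than 4-fold. Mouse 1 read at least 2.15-fold for each of the 10 genes, whereas mouse 2 read 1.18-fold to 1.37-fold for Car9, Egln1 and Adm, the 3 genes that did not pass. By intensity, the organoid value was higher in mouse 1 for all 10 genes, against 49.2% of all genes and 75.9% of those that rose more than 4-fold. The crypt value was higher in mouse 1 for 7 of the 10, against 47.7% and 89.7%. Each array holds 1 mouse, so levels between mice rest on the normalisation between arrays, and with 1 pair of RNAs per mouse the difference between the mice was not tested.

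**Figure D4:**
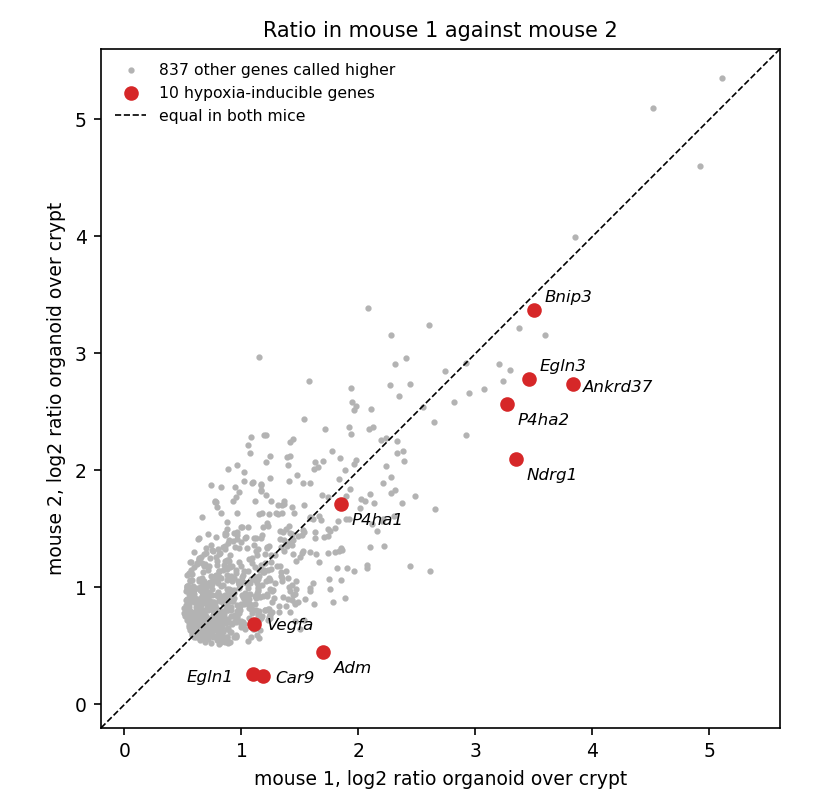
Log2 ratio of organoid over crypt in mouse 1 (horizontal axis) against mouse 2 (vertical axis) for the 10 genes (red, labelled) and the 837 other genes that rose (grey), with the line of equal ratios. All 10 red points lie below the line, Bnip3 and P4ha1 closest to it, and Egln1, Car9 and Adm lie under 0.5 in mouse 2.

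The dyes also differed in mouse 1. There the array with organoid RNA in Cy5 exceeded the other by a median of 0.70 over the 10 genes, against -0.01 in mouse 2. Over all genes the medians were -0.04 and 0.06, and over the genes that rose more than 4-fold they were 0.74 and 0.19. P4ha2 (1.90), Adm (1.60) and P4ha1 (1.26) had the widest gaps of the 10 in mouse 1, and Ndrg1 (0.01) had almost none. Crypt levels of mouse 1 with organoid RNA in Cy5 and in Cy3 were 7.70 and 9.30 for P4ha2. They were 7.86 and 8.92 for Adm and 7.94 and 9.06 for P4ha1. Organoid levels lay closer together, at 11.92 and 11.62, 10.36 and 9.83, and 10.42 and 10.28 in the same order. The crypt levels of mouse 1 given above are means over both arrays. The part of the dye in the difference between the mice was not tested. With organoid RNA in Cy3 alone, 6 of the 10 genes rose, as did 432 of all 15538, and the median of the 10 was 1.88. With organoid RNA in Cy5 alone, 8 rose, as did 1086 of all 15538, and the median of the 10 was 2.33.

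Egln1 and Egln3 aside, the genes on the list of oxygen sensing and HIF subunits did not pass the test. Of these 15 genes 14 were tested (Arnt2 was not). By limma 0 rose and 0 fell, and the median ratio was 0.11. An unadjusted p under 0.05 was found for 4294 of all 15538 genes and for 3 of the 14. Treating the 4 arrays with mouse as a random block, limma called 3 of them higher, and 1763 of all 15538 genes. The HIF alpha subunit genes Hif1a (0.14 ± 0.26), Epas1 (0.15 ± 0.55) and Hif3a (0.03 ± 0.05) and their partner Arnt (0.16 ± 0.29) had means within 0.2 of 0. Vhl, whose product leads marked HIF to destruction, read 0.36 ± 0.02 (adjusted p = 0.151). The remaining hydroxylase genes Egln2 (-0.13 ± 0.15) and Hif1an (0.00 ± 0.08) were also close to 0. The subunit genes of the VHL ligase complex, Cul2 (0.07), Rbx1 (-0.01), Elob (-0.22) and Eloc (0.24), did not pass. Of the genes for coactivators and their competitor, Cited2 read 0.52 ± 0.32, Crebbp 0.44 ± 0.12 and Ep300 0.01 ± 0.01, without passing. These are transcript levels, and HIF is mainly controlled as a protein, which the arrays do not measure.

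Beyond the 10 genes, 27 of 36 other hypoxia-inducible genes were tested, of which 12 rose and 0 fell, with a median of 0.71. With median centring 4 of the 27 rose, and without the filter on dim probes 4 did. Over all genes, 130 of 15538 rose with median centring and 293 of 28562 without the filter, against 844 of 15538 in the reported setting. The secreted glycoprotein gene Stc2 (3.00 ± 0.33, limma adjusted p = 0.0019), the mitochondrial adenylate kinase gene Ak4 (2.26 ± 0.03, adjusted p = 0.00207) and the endothelin precursor gene Edn1 (2.06 ± 1.29, adjusted p = 0.0424) were the highest. Stc2 and Edn1 were each well above background in 3 of 4 crypt channels. Both entered the test, and the count of 12, only through the organoid channels, where they were high. The oxidase gene Ero1a (1.87 ± 1.04, a call lost in 6 of 9 alternatives), the lipoprotein receptor gene Vldlr (1.85 ± 0.24) and Ddit4, an inhibitor of mTOR signalling (1.78 ± 0.61), followed. Among those that did not pass were Angptl4 (0.15 ± 0.62), Ccng2 (0.06 ± 0.43) and Car12 (-0.60 ± 0.53), named here after their values were seen. Of 19 tested genes of glucose uptake and glycolysis under HIF, 11 rose and 0 fell, with a median of 1.12, led by the aldolase gene Aldoc (2.80 ± 0.07), the lactate exporter gene Slc16a3 (2.61 ± 0.44) and the glucose transporter gene Slc2a1 (2.16 ± 0.69). With median centring 6 of the 19 rose, and without the filter 5 did, beside the same counts over all genes as above. The larger ratio was in mouse 1 for 22 of the 27 and for 17 of the 19, among them 10 of the 12 and 10 of the 11 that rose. Ak4 and Edn1 were the exceptions among the 12, and Edn1 read 1.15 in mouse 1 and 2.97 in mouse 2. Of the 14 oxygen-sensing genes, 5 had the larger ratio in mouse 1.

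**Figure D5:**
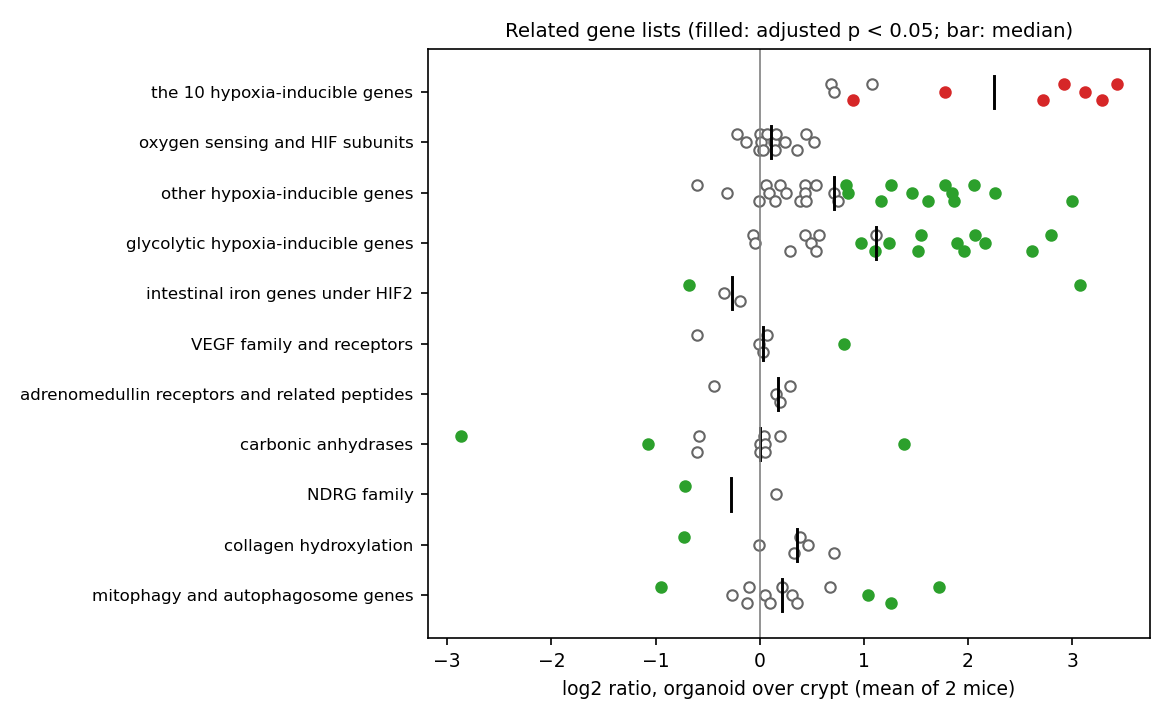
Log2 ratio of organoid over crypt, mean of 2 mice (horizontal axis), of the tested genes on each related list (rows), filled where they passed the test (adjusted p under 0.05), with the median of each list as a bar. The median of the 10 genes is 2.25, that of the glycolytic genes 1.12, that of the other hypoxia-inducible genes 0.71 and that of the oxygen-sensing genes 0.11.

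Genes that work beside single members of the 10 were read from further lists. The mitophagy and autophagosome list had 13 tested genes, of which 3 rose and 1 fell. The Bnip3 relative Bnip3l rose by 1.26 ± 0.29 (limma adjusted p = 0.0121), the autophagosome gene Gabarapl1 by 1.72 ± 0.46 (adjusted p = 0.00887) and the cargo receptor gene Sqstm1 by 1.04 ± 0.17 (adjusted p = 0.0143). The cargo receptor gene Optn fell by 0.95 ± 0.35 (adjusted p = 0.0294). Of the NDRG family, Ndrg3 fell by 0.72 ± 0.09 (adjusted p = 0.031, a call lost in 6 of 9 alternatives) and Ndrg2 read 0.16.

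Of the VEGF family and its receptors 5 of 9 genes were tested. Vegfb rose by 0.81 ± 0.35 (limma adjusted p = 0.044, lost in 5 of 9 alternatives), and it was larger in mouse 2 (1.07) than in mouse 1 (0.56). Vegfc (-0.01), Pgf (0.03) and Nrp2 (0.07) lay close to 0, and the receptor gene Flt1 read -0.60 ± 0.35 (adjusted p = 0.0884). Kdr, which encodes the main receptor for VEGF on vessels, was not tested, nor were Flt4, Nrp1 and Vegfd. Of the adrenomedullin receptor genes and related peptides, 4 of 7 were tested and 0 passed by limma. Before adjustment, 0 of the 4 had a p under 0.05, against 4294 of all 15538 genes. Calcrl, the receptor itself, read 0.19 ± 0.26.

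Of 4 intestinal iron genes known to respond to HIF, 1 rose and 1 fell. The duodenal iron reductase gene Cybrd1 rose by 3.08 ± 0.31 (limma adjusted p = 0.00175), which became 1.86 with the mean over its tested probes. The transferrin receptor gene Tfrc fell by 0.68 ± 0.21 (adjusted p = 0.046, lost in 5 of 9 alternatives). The iron importer gene Slc11a2 (-0.19) and the exporter gene Slc40a1 (-0.34) did not pass.

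Marker genes were read beside these results because crypt preparations can hold other cells. All 7 epithelial markers were well above background in all 8 channels. Their summed log2 intensity was 18.97 to 19.11 in crypts and 18.57 to 18.61 in organoids, with 3 lower (Krt8, Krt19 and Vil1, the Krt19 call being lost in 5 of 9 alternatives) and Krt18 higher by 1.26. Of 6 endothelial markers, Pecam1, Cdh5, Emcn and Tie1 were not well above background in any channel, and the tested pair, Tek (0.05) and Vwf (0.15), did not pass. Their summed level was 8.76 to 8.80 in crypts and 8.78 to 8.99 in organoids. Of 6 stromal markers 1 was tested, Col1a2 at 0.00, and Dcn, Lum and Pdgfra were not well above background in any channel. The level of Col1a2 was 7.76 to 7.97 in crypts and 7.79 to 7.93 in organoids. At probes as dim as those of Col1a2, Tek and Vwf, the offset of 50 draws ratios towards 0. Their ratios therefore do not show equal amounts in both tissues. The smooth muscle gene Acta2 fell by 0.66 (adjusted p = 0.0363), a call lost in 6 of 9 alternatives, and its ratio was -0.31 with the mean over its tested probes. The 6 leukocyte markers were tested and 0 passed by limma, with a median of -0.18. Their summed level was 10.56 to 10.62 in crypts and 10.32 to 10.37 in organoids. Before adjustment, 2 of the 6 had a p under 0.05, as did 4294 of all 15538 genes. Itgam was well above background in 4 crypt channels and 0 organoid channels, so its ratio of -0.56 was limited by the background. Over the alternatives Itgam reached -2.07, passing in 2, and Ptprc reached -2.02, whereas Cd3e stayed between 0.02 and 0.18. All 5 enterocyte markers fell, with a summed level of 17.73 to 17.91 in crypts and 15.55 to 15.77 in organoids. Among 4 crypt-base markers the stem cell gene Lgr5 rose by 2.29 and the Paneth cell gene Lyz1 fell by 2.92, whereas the stem cell genes Olfm4 (-0.09 ± 0.21, adjusted p = 0.763) and Ascl2 (-0.22 ± 0.12, adjusted p = 0.364) did not pass the test. Of 3 proliferation markers (Mki67, Top2a and Mcm6) 0 passed by limma, with 0 at an unadjusted p under 0.05 and ratios from -0.29 to -0.17. The arrays do not measure the share of each cell type, and the part of these marker changes in the ratios of the 10 genes was not tested.

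The 5 other genes whose 4 array ratios lay closest to the median profile of the 10 genes (2.93, 1.80, 1.75 and 1.98 for mouse 1 in Cy5 and Cy3 and mouse 2 in Cy5 and Cy3) were Areg, Mboat1, Aldoa, Hk1 and Lgr5. Their Euclidean distances over the 4 arrays ran from 0.297 for Areg, the gene of an EGF receptor ligand, to 0.659 for Lgr5. With 4 arrays of 2 mice, likeness in this sense says little beyond a similar mean ratio.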

How the data were processed

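Per the labels, 500 ng of RNA per channel was labelled for 4 two-colour arrays. The labels name Trizol and the design text names RNeasy. The deposited intensity values (mean spot signal and median local background) and the deposited log10 ratio come from Agilent Feature Extraction, version 10.2.1.3 per the file headers and 9.5.3 per the submitters' processing notes. The authors' deposited matrix holds log2 ratios of Cy5 over Cy3 (r from 0.978 to 0.991 against the scanner ratio), with a median of 0 and 6734 to 8950 values at exactly 0 per array. Its centring is not described in the sources used here.

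Background correction (normexp, offset 50) and all fits used limma 3.58.1 under R 4.3.3. Arrays were normalised by loess with the 1639 control spots at weight 0, outlier-marked spots were dropped and the spots of a probe averaged. The dye labels set the sign of each ratio (organoid over crypt), and the 2 arrays of a mouse averaged (r between them was 0.837 and 0.85 across genes). Testing was limited to the 21923 of 41174 probes without an outlier mark that stood well above background in every crypt channel or in every organoid channel. The brightest tested probe represented its gene. Names came from RefSeq (GRCm38.p6) by accession for 24844 probes and otherwise from the file. Positions are mm9, per the files. The 2 mouse means were tested against 0 (lmFit and eBayes, two-sided, prior SD 0.201 with 4.16 degrees of freedom). The number of arrays limits the precision. In crypt channels 53.8% to 67.3% of probes were well above background, and in organoid channels 51.5% to 61.7%. The limma fit was tested on simulated ratios per mouse, and the other steps were not tested in this way.

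Intensities were quantile-normalised between arrays on their average (Aquantile). Summed marker levels cover tested genes. All 10 genes are named. From each related list at most 6 genes that passed per direction are named, by size, as are all genes of the oxygen-sensing list. The 10 genes and the lists were chosen with earlier results of these data known. Alternatives are another background correction, centring, ratio source, filter, probe rule, dye and model.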

Additional observations from a re-analysis of the deposited data

How the results depend on the processing

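All 10 genes kept a ratio above 0 in each of the 9 alternatives with a test. Bnip3, Ankrd37, Egln3, P4ha2 and P4ha1 passed in 9 of 9, Ndrg1 in 8, Vegfa in 3, Adm in 1, and Car9 and Egln1 in 0. The number of genes passing in either direction, 1697 in the reported setting, was 224 with median centring in place of loess, 677 without the filter on dim probes, 908 with organoid RNA in Cy3 alone, and 3363 with the 4 arrays fitted with a dye effect and mouse as a random block (block correlation 0.173, estimated without the dye term). On the related lists the number passing, 34 in the reported setting, was 13 with median centring and 12 without the filter. The cause was not tested, except that the filter's removal adds genes to the adjustment. Median centring moved the median of all genes from 0.02 to 0.17 and that of the 10 genes from 2.25 to 2.53. The split of all genes between higher and lower calls was 844 to 853 in the reported setting and 130 to 94 with median centring. Fitting each probe by itself was chosen after the data were seen. Leaving out 1 mouse leaves the other's ratio with no test, and those ratios are given per mouse. A fit with the slide as a block was not run, since all 4 arrays share 1 slide. The reported test is itself paired, since each ratio sets organoid against crypt RNA of the same mouse. Probes at background in both tissues carry only a bound.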
